A study of Arabidopsis thaliana with 6 samples.

Results

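*SAUR* (*SMALL AUXIN UP RNA*) genes are small, mostly intron-free plant genes, and many of them are switched on quickly by auxin. Described here are 41 *SAUR* genes of *Arabidopsis thaliana*, chosen by locus as *SAUR1* to *SAUR10*, *SAUR14* to *SAUR16*, *SAUR19* to *SAUR29*, *SAUR50* and *SAUR51*, *SAUR61* to *SAUR68* and 7 genes of further clades (*SAUR32*, *SAUR36*, *SAUR41*, *SAUR71*, *SAUR72*, *SAUR76* and *SAUR78*), out of 33318 named genes in the deposited tables. The reference annotation gives each of the 41 loci the same *SAUR* name. RNA sequencing was done on second internodes of flowering Col-0 plants that carried *pPXY:GR-ARF5∆III/IV* (labelled PXY:GR-MP∆III/IV), in 3 mock and 3 Dex libraries. In these plants the promoter of the cambium gene *PXY* drives ARF5 (also called MONOPTEROS, MP), an auxin response factor, without its domains III and IV, to which AUX/IAA repressors bind, and fused to the glucocorticoid receptor (GR), so that the protein enters the nucleus with dexamethasone (Dex). Dex plants were dipped in 15 µM Dex and harvested after 3 h, and mock plants were treated alike without Dex. All 6 libraries carry the transgene, plants without it were not among the libraries analysed here, and an effect of Dex itself cannot be told apart from that of the transgene. The promoter is active in cambium stem cells, whereas whole internodes were sequenced. Which transgenic line was used is not given in the sources used here. The methods name 3 plants for each replicate, and the deposited design speaks of RNA pooled from 3 samples.

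SAUR proteins of the *SAUR19* group bind and inhibit PP2C.D phosphatases, which take an activating phosphate off the proton pumps of the plasma membrane (AHA proteins). With the phosphatases held back, the pumps acidify the cell wall and the cell expands. *SAUR* transcripts are short-lived, so that their levels follow auxin, light, temperature and brassinosteroid signals within a short time, and they are known chiefly from elongating tissues.

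The 6 genes of the *SAUR19* clade lie close together on chromosome 5 and are so alike that part of their reads cannot be given to 1 gene, which bears on the counts described next. The first 54 coding bases of each are printed from the RefSeq TAIR10.1 genome, 5′ to 3′ on the strand of the gene, with capitals at the 8 positions where the 6 genes are not all the same. The deposited tables, made on TAIR10, hold no coordinates, and those given here are of TAIR10.1.
*SAUR19* (AT5G18010, chr5:5963252-5963305, minus strand): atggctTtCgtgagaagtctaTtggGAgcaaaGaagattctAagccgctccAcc
*SAUR20* (AT5G18020, chr5:5966527-5966580, minus strand): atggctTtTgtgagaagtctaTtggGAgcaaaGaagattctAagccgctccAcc
*SAUR21* (AT5G18030, chr5:5968527-5968580, plus strand): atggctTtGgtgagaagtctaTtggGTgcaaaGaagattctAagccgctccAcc
*SAUR22* (AT5G18050, chr5:5974910-5974963, minus strand): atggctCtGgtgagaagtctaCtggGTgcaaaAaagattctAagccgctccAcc
*SAUR23* (AT5G18060, chr5:5976030-5976083, plus strand): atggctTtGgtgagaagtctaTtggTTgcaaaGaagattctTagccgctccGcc
*SAUR24* (AT5G18080, chr5:5983840-5983893, plus strand): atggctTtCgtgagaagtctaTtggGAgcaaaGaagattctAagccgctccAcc
Over this stretch *SAUR19* and *SAUR24* were identical at 54 of 54 bases, *SAUR19* and *SAUR20* at 53, and *SAUR22* and *SAUR23*, the least alike pair, at 48. Reads were 50 bases long. In the whole transcripts, *SAUR19* shared 41 different 50-base words with *SAUR24*, 37 with *SAUR21*, 26 with *SAUR20* and 20 with *SAUR23*. Of the 50-base words of a transcript, the share found at a single place in the genome was 81.5% for *SAUR19*, 92.9% for *SAUR24*, 94.2% for *SAUR20*, 94.8% for *SAUR21*, 97.4% for *SAUR23* and 99.4% for *SAUR22*. Of all members, 29 of 41 had only single-place words. The share was lowest for *SAUR67* (66.1%), *SAUR63* (72.9%) and *SAUR62* (76.8%), which share words with one another. In the deposited counts, 29 members had unique reads alone, 11 also had reads that matched elsewhere, and *SAUR2* had no reads.

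A sequence was also read for the 3 members that passed the test for a difference between Dex and mock (*SAUR20*, *SAUR50* and *SAUR32*), namely the 250 bases before the annotated gene in TAIR10.1, on the gene's strand. Capitals mark the motifs TGTCTC and TGTCGG (bound by auxin response factors), CACGTG (the G-box, bound by bHLH factors such as PIF proteins), CATATG (an E-box of the form CANNTG) and TATAAA (the TATA box), on either strand; TATAAA can overlap its own reverse complement, as in TTTATAAA.
*SAUR20* (chr5:5966786-5967035, minus strand): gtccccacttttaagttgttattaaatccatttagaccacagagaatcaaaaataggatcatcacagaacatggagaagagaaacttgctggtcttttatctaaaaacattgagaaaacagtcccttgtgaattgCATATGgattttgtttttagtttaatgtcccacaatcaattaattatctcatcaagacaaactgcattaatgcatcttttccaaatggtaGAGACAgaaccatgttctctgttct
*SAUR50* (AT4G34760, chr4:16583076-16583325, minus strand): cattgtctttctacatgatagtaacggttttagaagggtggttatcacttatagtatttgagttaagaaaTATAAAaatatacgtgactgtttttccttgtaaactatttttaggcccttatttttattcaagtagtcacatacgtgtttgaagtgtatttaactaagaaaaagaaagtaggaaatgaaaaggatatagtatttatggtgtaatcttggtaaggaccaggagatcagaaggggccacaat
*SAUR32* (AT2G46690, chr2:19180455-19180704, plus strand): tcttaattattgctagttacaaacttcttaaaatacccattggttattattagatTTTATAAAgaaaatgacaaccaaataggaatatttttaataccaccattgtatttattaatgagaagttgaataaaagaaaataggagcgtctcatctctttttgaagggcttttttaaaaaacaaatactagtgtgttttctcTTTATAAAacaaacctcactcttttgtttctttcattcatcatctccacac
*SAUR20* held 1 TGTCTC, read here on the other strand as GAGACA, and 1 CATATG. *SAUR50* held 1 TATAAA, and *SAUR32* held 4, counted on both strands. Over the members, TGTCTC was found in the window of 7 of 41 genes (17.1%, against 10.9% of 27443 windows of protein-coding genes), TGTCGG in 2 (4.88% against 4.16%), CATATG in 8 (19.5% against 7.12%), TATAAA in 17 (41.5% against 47.3%) and CACGTG in none (against 6.49%). Of the 8 windows with CATATG, 4 belonged to the *SAUR19* clade. A match is a run of letters and not a measured binding site, and a window without a match says nothing of the factor.

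The libraries held 22871927 to 32099136 reads in genes. Levels are given as CPM, read counts scaled to library depth with TMM factors (per 1000000 reads in genes), and are compared between genes only as the authors' RPKM, which divides by exon length. No 2 libraries agreed within sampling noise. Mock replicate 2 stood apart from the other mock libraries on both leading principal components (49.4% and 20.6% of the variance), so calls are also given without it. *ARF5*, whose reads cannot be told apart from those of the transgene outside the removed domains, had 231 to 277 CPM in mock and 205 to 230 CPM in Dex libraries. Markers of cambium (5 of 5), phloem (6 of 6), xylem (8 of 8) and green cortex (6 of 6) passed the filter on low counts, and so did 6 of 7 of the epidermis, with *PDF1* at 0 reads. No marker of the 5 lists passed the test in either direction with all 6 libraries, but without mock replicate 2 all 6 green cortex markers and 2 epidermis markers (*CER1* and *LTP1*) fell. In that fit 7.96% of all genes tested fell.

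Per exon length, the most abundant member was *SAUR32*, at 81.7 ± 20.4 RPKM (mean ± SD over the 6 libraries), then *SAUR76* (56.6 ± 19.7 RPKM), *SAUR78* (49.99 ± 16.0 RPKM), *SAUR41* (35.4 ± 5.64 RPKM), *SAUR24* (28.3 ± 13.6 RPKM), *SAUR71* (24.9 ± 4.43 RPKM) and *SAUR50* (22.2 ± 10.8 RPKM). Between *SAUR76* and *SAUR78*, and again from *SAUR24* to *SAUR50*, neighbours in this order differed by less than the SD of either. The order differed between the group means. Over the mock libraries alone, *SAUR24* (35.6 ± 14.5 RPKM) and *SAUR29* (33.5 ± 23.9 RPKM) were level with *SAUR41* (34.2 ± 7.07 RPKM). By mean both were above *SAUR71* (24.7 RPKM) there. Over the Dex libraries alone *SAUR24* was at 20.9 RPKM and *SAUR29* at 6.86 RPKM, below *SAUR71* (25.2 RPKM). In mock replicate 2, *SAUR24* had 19.8 RPKM and *SAUR29* 6.74 RPKM, near their Dex means. Their higher mock means thus came from mock replicates 1 and 3. The next were *SAUR29* (20.2 ± 21.1 RPKM), *SAUR14* (19.8 ± 11.7 RPKM) and *SAUR36* (17.0 ± 2.71 RPKM), of which *SAUR29* and *SAUR14* were within the SD of either. *SAUR2* had no reads, and the lowest member with reads was *SAUR3*, at 0.319 RPKM. The order also rests on the deposited exon lengths. Those of *SAUR24* (273 bases) and *SAUR29* (291 bases) equal the coding length in TAIR10.1, where the transcripts have 626 and 760 bases. Those of *SAUR20* (495 bases) and *SAUR21* (504 bases) exceed the coding length. The RPKM of *SAUR24* and *SAUR29* is thus raised beside that of such members.

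**Figure D1:**
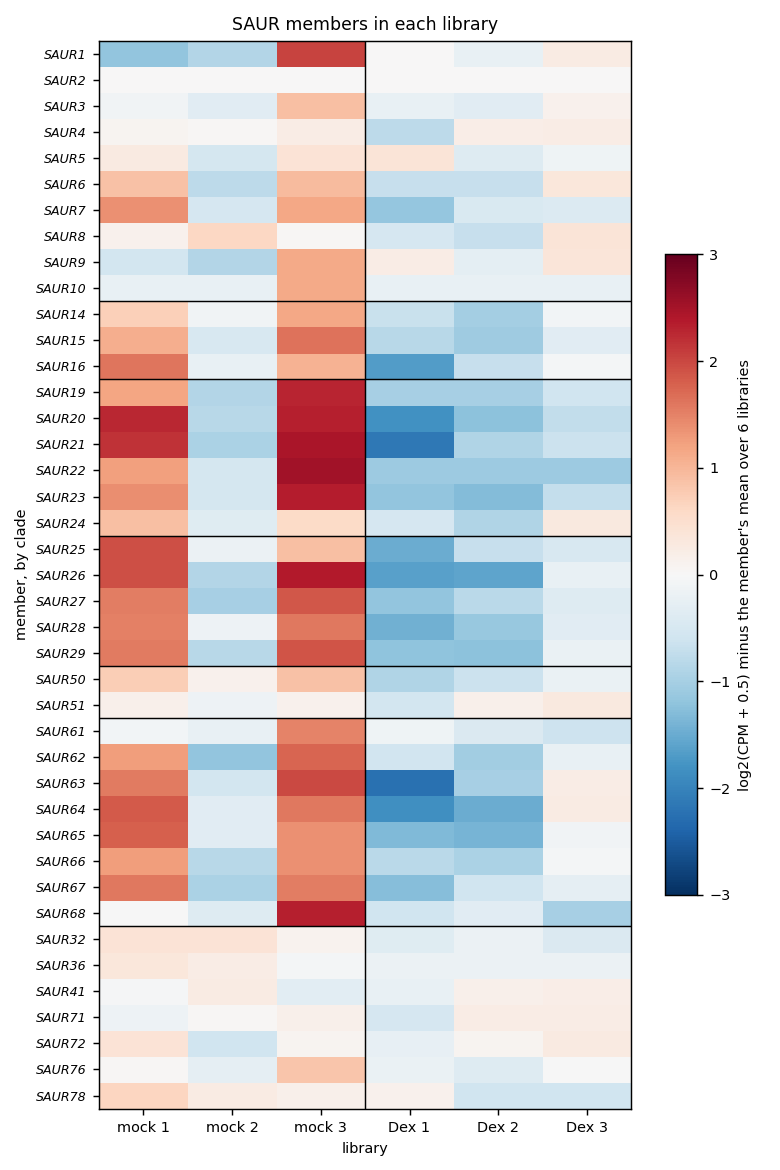
Each row is a member, each column a library, and the colour is log2(CPM + 0.5) minus the member's own mean over the 6 libraries, with lines between clades (from the top *SAUR1* to *SAUR10*, *SAUR14* to *SAUR16*, *SAUR19* to *SAUR24*, *SAUR25* to *SAUR29*, *SAUR50* and *SAUR51*, *SAUR61* to *SAUR68*, further clades). In most clades mock 1 and mock 3 are red and mock 2 is as pale or blue as the Dex libraries, whereas the rows of the further clades at the bottom are pale throughout.

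Summed over all 41 members, 490, 300 and 515 CPM were found in mock replicates 1 to 3, and 220, 228 and 274 CPM in Dex replicates 1 to 3. The Dex libraries were thus below all mock libraries, with mock replicate 2 the nearest to them. In bulk internodes, fewer cells of a type and less RNA per cell cannot be told apart. The further clades alone made up 51.1%, 76.3% and 45.6% of this sum in mock replicates 1 to 3 and 79.95%, 79.3% and 66.9% in the Dex libraries. Their own sum was 250, 229 and 235 CPM with mock and 176, 181 and 183 CPM with Dex, without overlap and with mock replicate 2 beside the other mock libraries.

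Of the 41 members, 33 passed the filter on low counts for the test. *SAUR2*, *SAUR3*, *SAUR10*, *SAUR19*, *SAUR22*, *SAUR23*, *SAUR61* and *SAUR68* did not. In edgeR's quasi-likelihood test, with Benjamini-Hochberg adjustment over all 19347 genes tested, 3 members fell with Dex (*SAUR20*, *SAUR50* and *SAUR32*), where 2.07% of all genes tested fell, and no member rose, where 4.63% of all genes did. At an unadjusted p under 0.05, 21 members were lower (10.2% of all genes tested) and none was higher (12.4%). The log2 fold change of Dex over mock was below 0 for 30 of 33 tested members, with a median of -1.27, beside a median of -0.01 over all genes tested, of which 51.5% were below 0. Members that passed the filter only through high mock values had to be lower with Dex. This does not apply to members with many reads in every library, such as *SAUR14* (130 to 538 reads) and *SAUR50* (175 to 609 reads). The filter also left out members that were near 0 in mock replicate 2 and with Dex. Among these, *SAUR19* and *SAUR23* were at -5.01 and -4.74 in the fit without the filter, and *SAUR22* had no reads with Dex. The median is thus a description of the 33 and not of all 41. All Dex values lay below all mock values in 6 tested members (12.1% of all genes tested), namely *SAUR25*, *SAUR28*, *SAUR32*, *SAUR36*, *SAUR50* and *SAUR78*, and in none did all lie above (15.2%).

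The number of members called depended on mock replicate 2 and on the tool. Without mock replicate 2, 26 of 37 members tested fell (7.96% of all genes tested in that fit) and none rose (9.79%). *SAUR19*, *SAUR22*, *SAUR23* and *SAUR68* are among the 26, and passed the filter there only through the high values of mock replicates 1 and 3, so that they had to come out lower. Mock replicate 2 was also the lowest mock library in 26 of the 33 tested members (34.0% of all genes tested). Its removal raises the mock mean of these members, so the higher count is no separate support for a fall. With unique reads alone 4 fell (2.19%), the fourth being *SAUR28*, and none rose (4.83%). Without the filter on low counts, 12 of 40 fell (1.97%) and none rose (4.1%), and in DESeq2 15 fell (4.31%) and none rose (6.53%). Leaving out any other library instead brought the count to 0 (without mock replicate 1) or to 1 (without mock replicate 3 or any 1 of the Dex replicates). Without Dex replicate 1 the member called was *SAUR78* (adjusted p = 0.0315), and all 3 calls of the main test were lost. Shares of all genes were not computed for these fits, so a loss that all genes share cannot be told apart.

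**Figure D2:**
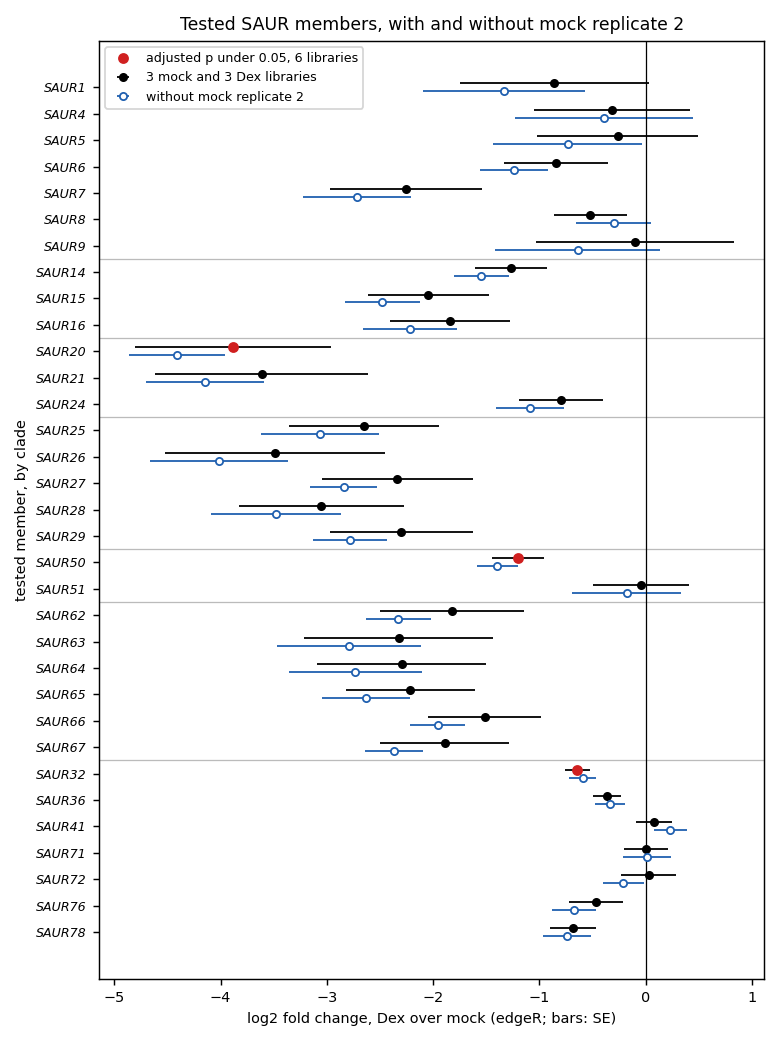
Log2 fold change of Dex over mock (edgeR, horizontal axis, bars are SE) of the 33 tested members, by clade; black points are from all 6 libraries, red ones passed at an adjusted p under 0.05, and open blue points are from the fit without mock replicate 2. The 3 red points are *SAUR20*, *SAUR50* and *SAUR32*, and in the clades of *SAUR19* to *SAUR29* and *SAUR61* to *SAUR68* the blue points lie further to the left with shorter bars.

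The clade of *SAUR19* to *SAUR24*, whose products drive cell expansion in the hypocotyl, held the largest fitted difference of the 33 tested members, that of *SAUR20*. *SAUR20* had 10.1, 0.740 and 10.5 CPM in mock replicates 1 to 3 and 0.125, 0.440 and 0.818 CPM in Dex replicates 1 to 3. Mock replicates 1 and 3 were far above the other 4 libraries, and mock replicate 2 lay between Dex replicates 2 and 3, so the groups overlapped. It fell by 3.88 on the log2 scale (SE 0.93, adjusted p = 0.0427). Leaving out mock replicate 1 raised the adjusted p to 0.134, and leaving out mock replicate 3 raised it to 0.100. With the first, the second or the third Dex library removed it was 0.153, 0.153 and 0.101, and in limma-voom it was 0.309, so that the call was lost each time. It was 0.000329 without mock replicate 2. Over all 15 alternatives it ranged from 0.000173 to 0.309.

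*SAUR21* went the same way as *SAUR20*, at 10.3, 0.740 and 12.6 CPM with mock and 0.0416, 0.770 and 1.04 CPM with Dex, and did not pass (log2 fold change -3.61, SE 1.00, adjusted p = 0.0677). Its unique reads numbered 161, 14 and 221 with mock and 1, 17 and 24 with Dex, out of 228, 19 and 292 and 1, 21 and 33 in all. The unique reads thus had the same order of libraries, with mock replicate 2 among the Dex libraries. *SAUR20* had only unique reads, 224, 19 and 244 with mock and 3, 12 and 26 with Dex, although the genome sequence gives it 50-base words in common with *SAUR19*.

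*SAUR19*, *SAUR22* and *SAUR23* were too low for the test, since they were near 0 in 4 of the 6 libraries. *SAUR22* had 44, 6 and 130 reads, all unique, in mock replicates 1 to 3 and none in any Dex library. Set against 3 counts over the Dex group, its level pooled over the mock libraries was at least 70.2-fold higher, a bound that covers counting error only. This pooled level rests on mock replicates 1 and 3. Mock replicate 2 was at 0.234 CPM, beside a floor of 0.0361 CPM. *SAUR23* had 61, 9 and 134 reads (57, 9 and 126 unique) with mock and 1, 0 and 8 (1, 0 and 7 unique) with Dex. *SAUR19*, the gene with the fewest unique reads of the clade in proportion (66.9%), had 39, 1 and 100 reads (23, 0 and 71 unique) with mock and 0, 0 and 5 (0, 0 and 3 unique) with Dex. In each of these genes mock replicates 1 and 3 were above all other libraries.

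*SAUR24* had 13.6, 5.37 and 10.7 CPM with mock and 4.79, 3.56 and 8.68 CPM with Dex. It was the most abundant of the clade by RPKM, which for this gene divides by the coding length alone. In *SAUR24*, Dex replicate 3 was nearer to mock replicate 3 than to the other Dex libraries, and mock replicate 2 lay within the Dex range. It did not pass (log2 fold change -0.79, SE 0.40, adjusted p = 0.274), nor on unique reads alone (-0.71, adjusted p = 0.286), and passed without mock replicate 2 (-1.09, adjusted p = 0.0439). Of its reads 72.1% were unique, 210, 101 and 174 of 302, 138 and 248 with mock and 80, 87 and 196 of 115, 97 and 276 with Dex. Whether *SAUR24* differs from *SAUR20* in its response was not tested.

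**Figure D3:**
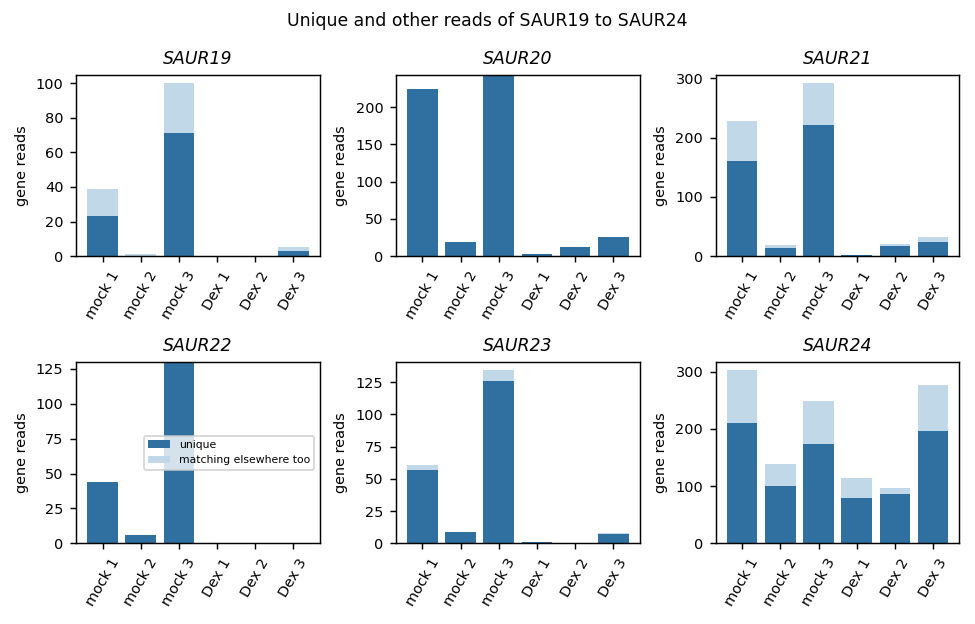
Gene reads (vertical axis, not scaled for depth) of *SAUR19* to *SAUR24* in each library, with unique reads in dark blue and reads that also matched elsewhere stacked in light blue. *SAUR20* and *SAUR22* hold unique reads only, *SAUR22* is empty in the Dex libraries, and *SAUR24* keeps 97 to 276 reads with Dex.

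No member of *SAUR25* to *SAUR29*, of which *SAUR26* to *SAUR28* are known for growth in warm conditions, passed the test, and all 5 were below 0, with log2 fold changes of -3.49 to -2.30 and adjusted p of 0.0519 to 0.0880. *SAUR28* was the nearest to the threshold and passed on unique reads alone (adjusted p = 0.0469). *SAUR29*, the most abundant of them, had 12.3, 1.95 and 15.6 CPM with mock and 1.37, 1.36 and 3.24 CPM with Dex (log2 fold change -2.30, SE 0.67, adjusted p = 0.0797). *SAUR27* had 8.22, 1.01 and 10.4 CPM with mock and 0.833, 1.21 and 1.79 CPM with Dex (-2.34, SE 0.71, adjusted p = 0.0880). In both, mock replicate 2 lay within the Dex range. *SAUR25* and *SAUR28* were the exceptions, with every mock library above every Dex library. Summed over the clade, 38.1, 5.61 and 42.9 CPM were found with mock and 2.58, 3.59 and 7.80 CPM with Dex. All 5 passed without mock replicate 2, in a fit where 7.96% of all genes tested fell. Mock replicate 2 was the lowest mock library in each of them (34.0% of all genes tested), which favours the call when it is left out. All their reads were unique.

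The array of *SAUR61* to *SAUR68* on chromosome 1, of which *SAUR63* is known to promote elongation of hypocotyls and stamen filaments, took 79.5, 14.8 and 87.2 CPM in mock replicates 1 to 3 and 10.3, 11.6 and 24.4 CPM with Dex. Of its 8 members 6 were tested and none passed (log2 fold changes -2.32 to -1.52, adjusted p of 0.0666 to 0.160). *SAUR66* had 18.4, 3.97 and 20.1 CPM with mock and 4.04, 3.59 and 7.11 CPM with Dex (log2 fold change -1.52, SE 0.53, adjusted p = 0.128). *SAUR67* (AT1G29510) had 17.1, 2.57 and 16.5 CPM with mock and 1.92, 3.37 and 4.37 CPM with Dex (-1.89, SE 0.61, adjusted p = 0.105). Mock replicate 2 was among the Dex libraries for both. The reads of *SAUR67* (66.4% unique), *SAUR63* (64.3%) and *SAUR62* (77.5%) are uncertain as to which of the genes they come from, whereas those of *SAUR66* were 99.2% unique and those of *SAUR64* and *SAUR65* all unique. Without mock replicate 2, 7 members were tested and 7 passed, where 7.96% of all genes tested fell. Of the 7, *SAUR68* had entered that fit through its mock values alone. In the 6 members tested with all libraries, mock replicate 2 was the lowest mock library (34.0% of all genes tested).

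*SAUR14*, *SAUR15* and *SAUR16*, of which *SAUR15* was first described as *SAUR-AC1* and *SAUR16* takes part in cotyledon opening in light, did not pass (log2 fold changes -2.04 to -1.27, adjusted p of 0.0644 to 0.0928). *SAUR14* (AT4G38840) had 16.8, 9.42 and 23.2 CPM with mock and 6.20, 4.77 and 9.47 CPM with Dex (-1.27, SE 0.34, adjusted p = 0.0644). It missed separation by a small gap, with mock replicate 2 just under Dex replicate 3. *SAUR16* had 12.3, 3.15 and 8.23 CPM with mock and 0.833, 2.13 and 3.55 CPM with Dex (-1.84, SE 0.57, adjusted p = 0.0928), again with mock replicate 2 within the Dex range. Of 15 alternatives, *SAUR14* passed in 5 and *SAUR16* in 3, with DESeq2 among them for both genes. *SAUR14* and *SAUR16*, with *SAUR32* and *SAUR50*, are on a gene list that the study drew up from these libraries together with others, so their presence there is not independent of the values given here. All 3 members passed without mock replicate 2, in a fit where 7.96% of all genes tested fell. Mock replicate 2 was the lowest mock library in each (34.0% of all genes tested).

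*SAUR50*, which acts with *SAUR16* in opening cotyledons, fell with Dex and its groups did not overlap. It had 23.7, 15.3 and 26.2 CPM in mock replicates 1 to 3 and 7.29, 8.84 and 12.2 CPM in Dex replicates 1 to 3, all of unique reads. The log2 fold change was -1.20 (SE 0.24, adjusted p = 0.0232). The call was lost on leaving out the first or the third mock library (adjusted p = 0.0878 and 0.0656) or the first or second Dex library (0.102 each), and over all 15 alternatives the adjusted p ranged from 0.000112 to 0.102. It passed without mock replicate 2 (adjusted p = 0.00163). Its relative *SAUR51*, lower per exon length (1.44 against 22.2 RPKM), had 1.17, 0.857 and 1.16 CPM with mock and 0.541, 1.17 and 1.35 CPM with Dex and did not pass (-0.05, SE 0.45, adjusted p = 0.968). The difference between both genes was not tested.

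*SAUR1* to *SAUR10* were mostly low. *SAUR2* had no reads, and *SAUR3* and *SAUR10* had too few for the test. *SAUR10*, which the factor FRUITFULL represses in stems, had 18 reads, all in mock replicate 3. None of the 7 tested passed (log2 fold changes -2.25 to -0.10, adjusted p of 0.101 to 0.966). *SAUR6*, the highest by RPKM (9.76), had 11.4, 3.23 and 12.0 CPM with mock and 3.54, 3.48 and 7.74 CPM with Dex (-0.84, SE 0.49, adjusted p = 0.346). *SAUR8* had 5.33, 7.63 and 4.96 CPM with mock and 3.21, 2.79 and 6.45 CPM with Dex (-0.52, SE 0.34, adjusted p = 0.407). *SAUR8* was thus highest in mock replicate 2, unlike *SAUR6*. *SAUR1* owed most of its reads with mock to replicate 3, at 9.01 CPM beside 0.542 and 0.779 CPM, and had 1.503 to 2.296 CPM with Dex. Without mock replicate 2, *SAUR6* and *SAUR7* passed. The reference models of *SAUR6* and *SAUR7* overlap, so reads there may belong to either gene.

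The further clades held the most abundant members, and the 1 called member in which mock replicate 2 lay between the other mock libraries. *SAUR32*, known from the apical hook of seedlings, had 78.9, 78.5 and 63.9 CPM in mock replicates 1 to 3 and 45.8, 52.3 and 43.7 CPM in Dex replicates 1 to 3. All mock values lay above all Dex values, and mock replicate 2 was close to mock replicate 1. The log2 fold change was -0.64 (SE 0.12, adjusted p = 0.0168), which is 0.641 of the mock level. The adjusted p was 0.0107 without mock replicate 2. It rose to 0.0614 on leaving out the first mock library and to 0.0717 and 0.0786 on leaving out the first and the third Dex library. Over all 15 alternatives it ranged from 0.000133 to 0.0786.

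*SAUR78* and *SAUR76*, whose proteins bind ethylene receptors, did not pass. *SAUR78* had 54.004, 41.002 and 38.5 CPM with mock and 37.7, 22.7 and 22.6 CPM with Dex (log2 fold change -0.69, SE 0.22, adjusted p = 0.0987), without overlap, though Dex replicate 1 was close to mock replicate 3. It passed without mock replicate 2 (adjusted p = 0.0496) and without Dex replicate 1 (0.0315). *SAUR76* had 35.9, 29.2 and 62.6 CPM with mock and 30.7, 26.8 and 34.9 CPM with Dex (-0.46, SE 0.25, adjusted p = 0.316). Here mock replicate 3 alone stood well above the rest. *SAUR36*, known from leaf senescence, had 18.5 to 24.6 CPM with mock and 16.9 to 17.1 CPM with Dex (-0.37, SE 0.13, adjusted p = 0.138). *SAUR41*, *SAUR71* and *SAUR72*, which belong to a clade involved in cell expansion, had log2 fold changes of 0.08 (SE 0.17), 0.01 (SE 0.21) and 0.03 (SE 0.26), with overlapping groups.

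**Figure D4:**
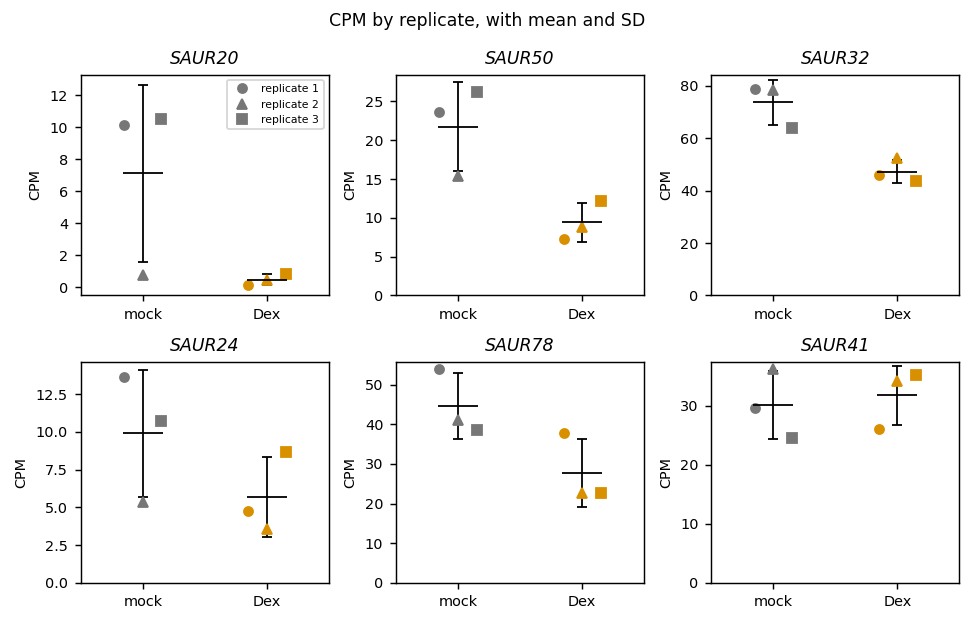
CPM (vertical axis) of 6 members in the mock (grey) and Dex (orange) libraries, with a mark for each replicate number and the mean and SD of each group as a bar. The called members *SAUR20*, *SAUR50* and *SAUR32* are in the upper row; the mock triangle (replicate 2) of *SAUR20* lies at 0.740 CPM beside the Dex values, and that of *SAUR32* at 78.5 CPM beside the other mock values.

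Set apart from the other mock libraries, mock replicate 2 was below both of them in 26 of 33 tested members (34.0% of all genes tested) and within the range of the Dex values in 19 (38.4% of all genes). All Dex values lay below mock replicates 1 and 3 in 24 of 33 members (23.5% of all genes). On the log2 CPM scale (prior count of 2), mock replicate 2 differed from the mean of mock replicates 1 and 3 by a median of -3.67 over the tested members of *SAUR19* to *SAUR24*, -2.78 for *SAUR25* to *SAUR29*, -2.43 for *SAUR61* to *SAUR68*, -1.83 for *SAUR1* to *SAUR10*, -1.65 for *SAUR14* to *SAUR16* and -0.56 for *SAUR50* and *SAUR51*. The further clades were the exception, with a median of 0.03, beside 0.04 over all genes tested. The Dex libraries differed from the same mean by -4.51, -3.05, -2.61, -0.73, -2.39 and -0.85 in the same order of clades, by -0.32 in the further clades and by 0.01 over all genes. As 1 library, mock replicate 2 allows no test.

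Green cortex markers and some epidermis genes were also lower in mock replicate 2 and the Dex libraries than in mock replicates 1 and 3. The 6 green cortex markers (light-harvesting and Rubisco genes) summed to 18124, 9283 and 16911 CPM in mock replicates 1 to 3 and to 7406, 10552 and 10429 CPM with Dex, with 6 of 6 lower in mock replicate 2 than in both other mock libraries. The 7 epidermis markers summed to 799, 517 and 856 CPM with mock and 436, 580 and 563 CPM with Dex. Within this list *CER1* (wax synthesis) had 307, 75.1 and 389 CPM with mock and 53.97 to 138 CPM with Dex, and *LTP1* (a lipid transfer protein) had 19.6, 2.26 and 28.8 CPM with mock and 2.55 to 3.21 CPM with Dex. In contrast, the epidermis regulators *ATML1* (7.54 to 10.7 CPM) and *PDF2* (16.6 to 18.2 CPM) and the wax gene *CER6* (307 to 375 CPM) varied little over the 6 libraries. Summed xylem (4995 to 7075 CPM), phloem (498 to 583 CPM) and cambium markers (410 to 522 CPM) did not separate mock replicates 1 and 3 from the other 4 libraries. The part of these tissues in the *SAUR* values was not tested.

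**Figure D5:**
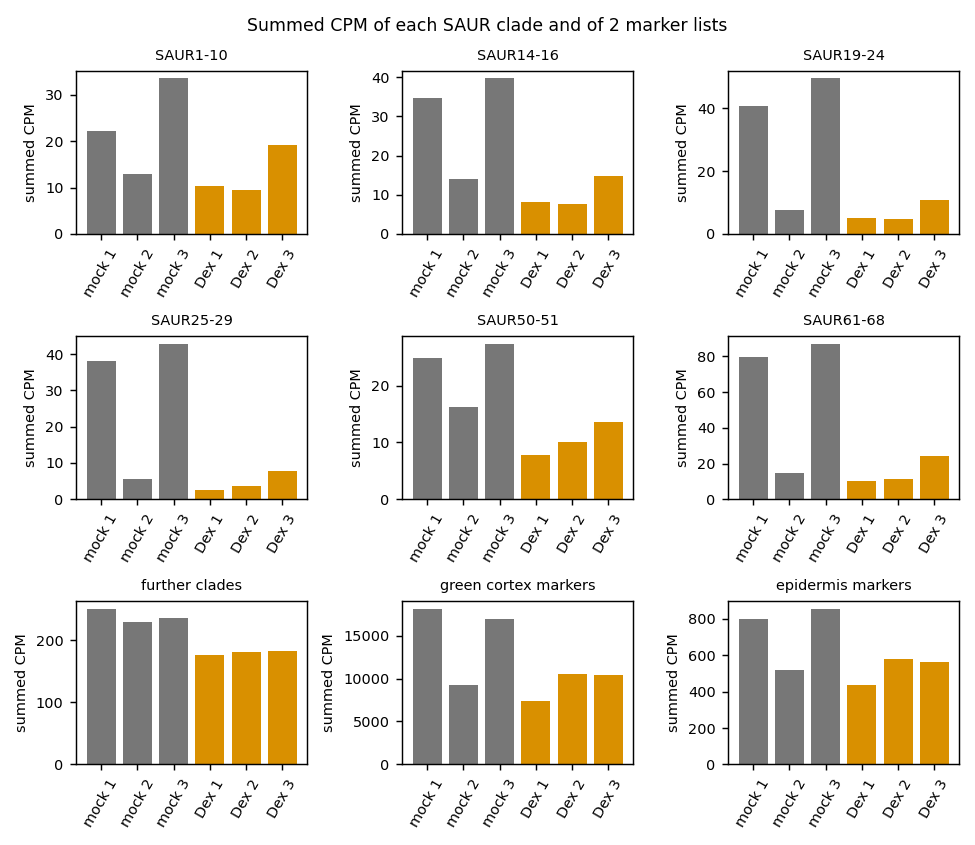
Summed CPM (vertical axis, from 0) of each *SAUR* clade and of the green cortex and epidermis marker lists, with a bar for each mock (grey) and Dex (orange) library. In the panels of *SAUR19* to *SAUR24*, *SAUR25* to *SAUR29* and *SAUR61* to *SAUR68*, mock 2 (7.48, 5.61 and 14.8 CPM) stands with the Dex bars, as it does for the green cortex markers, whereas in the panel of *SAUR32* and the other further genes it (229 CPM) stands with mock 1 and mock 3.

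Genes for the partners through which SAUR proteins act were tested in the same fit. None of the 9 PP2C.D phosphatase genes passed in either direction (log2 fold changes -1.50 to 0.29, median -0.07), with the most abundant, *PP2C.D6*, at 102, 105 and 93.9 CPM with mock and 88.9, 97.7 and 91.1 CPM with Dex. Of 11 genes for plasma membrane proton pumps 9 were tested and none passed (-0.45 to 0.37, median 0.04). *AHA1*, the most abundant of them, had 497, 555 and 521 CPM with mock and 433, 439 and 413 CPM with Dex (-0.29, SE 0.11, adjusted p = 0.148), lower in every Dex library than in every mock library but short of the threshold. At an unadjusted p under 0.05, 1 phosphatase gene was lower and 1 higher, and 2 pump genes were lower and none higher. Of all genes tested, 10.2% were lower and 12.4% higher at that level. In the fit without mock replicate 2, *PP2C.D5* (adjusted p = 0.0170) and *AHA11* (adjusted p = 0.0182) fell and no other gene of both lists passed. Of all genes tested in that fit, 7.96% fell and 9.79% rose.

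Among 14 regulators of *SAUR* genes (auxin response factors, brassinosteroid factors, PIF proteins, HBI1, the kinases TMK1 and TMK4 and FRUITFULL), 1 fell and none rose. Of all genes tested, 2.07% fell and 4.63% rose. With mock replicate 2 left out, 2 fell (*PIF4* and *TMK1*) and 3 rose (*ARF7*, *PIF5* and *HBI1*), where 7.96% and 9.79% of all genes tested did. *PIF4*, a bHLH factor that promotes elongation in warmth and shade, had 45.0, 48.4 and 36.9 CPM with mock and 27.0, 26.0 and 26.5 CPM with Dex (log2 fold change -0.71, SE 0.12, adjusted p = 0.0111). Its groups did not overlap, and mock replicate 2 was the highest library. *HBI1*, which acts with PIF proteins on cell elongation, had 31.8, 22.9 and 32.5 CPM with mock and 38.5, 42.4 and 51.2 CPM with Dex and did not pass (0.60, SE 0.16, adjusted p = 0.0631), but did without mock replicate 2 (adjusted p = 0.0438).

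Of the 38 other genes that the reference names *SAUR*, 16 had enough reads for the test and 7 had none. *SAUR13* (AT4G38825) alone fell, at 3.34, 0.428 and 2.24 CPM with mock and 0.291, 0.110 and 0.126 CPM with Dex (log2 fold change -3.50, SE 0.81, adjusted p = 0.0369), and none rose. Of all genes tested, 2.07% fell and 4.63% rose. On leaving out mock replicate 2, 4 fell (*SAUR13*, *SAUR30*, *SAUR52* and *SAUR74*) and *SAUR31* rose. In that fit 7.96% of all genes tested fell and 9.79% rose. Only 5.96% of the reads of *SAUR13* were unique, so they cannot be assigned to *SAUR13* with certainty. The median log2 fold change of these 16 genes was -0.29, beside -1.27 for the 33 tested members. Both lists passed the same filter on low counts, and their difference was not tested. The most abundant of the others per length, *SAUR30* (51.3 RPKM), had 59.2, 42.5 and 65.4 CPM with mock and 41.1, 46.6 and 49.2 CPM with Dex (-0.29, SE 0.16, adjusted p = 0.321, and 0.0225 without mock replicate 2).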

How the data were processed

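RNA of 3 mock and 3 Dex samples had been sequenced as single 50-base reads and aligned by the authors to TAIR10 with CLC Genomics Workbench. The deposited tables hold, for each gene, read counts over the gene (total and unique) and over exons, exon length, and RPKM, which the authors computed from total exon reads, exon length and all reads in genes (recomputed values were equal in each library). The libraries were strand-marked; whether counting used strand is not given in the sources used here. Entries without a gene name (0.0803% to 0.0998% of reads) were left out.

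Groups came from the sample labels. Total gene counts were tested with edgeR 4.0.16 (quasi-likelihood, TMM factors 0.969 to 1.04, minimum count 10, minimum total 15) in R 4.3.3, without covariates, with Benjamini-Hochberg adjustment over 19347 genes and a threshold of 0.05. CPM were computed from total gene counts. Replicates are separate samples, and p-values test the difference between Dex and mock against the spread between them, which edgeR estimates with the help of all genes. The members, lists and tests were chosen with earlier results of these data known. Values in every library are given for called members, the 2 most abundant of each clade by RPKM (3 of the further clades) and *SAUR19* to *SAUR24*; list genes are those called, otherwise the most abundant. *CER1*, *LTP1*, *ATML1*, *PDF2*, *CER6* and *HBI1*, list genes named only for calls without mock replicate 2, and single values of further members, were chosen after their values were seen. Counts were also simulated, with 200 changed genes drawn from the tested genes of the whole series and not from the members. The test found 14 of 67 with a 1.5-fold change, 50 of 67 at 2-fold and 63 of 66 at 4-fold, with 11 false calls among 138. The simulation held no mock library that stood apart, so these shares do not apply to the *SAUR* members. A floor of 3 counts over the group was used where a group had no reads. Alternatives were RLE factors, library totals, no filter, unique reads, exon reads, DESeq2 1.42.0, limma-voom 3.58.1, an unadjusted p, a replicate block and leaving out each library. Unique reads without mock replicate 2 were added after the data were seen.

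Sequences were read from RefSeq TAIR10.1 by locus; transcript lengths there equal the deposited exon length for 5 of 41 members, so the gene models differ. Protein sequences were not used here. Libraries of *p35S:Myc-GR-bdl* plants were not used here.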

Additional observations from a re-analysis of the deposited data

How the results depend on the processing

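The 3 members that fell in the main test were also called with RLE factors, library totals, exon reads and unique reads. The count of members lower with Dex moved to 12 without the filter on low counts, 15 in DESeq2, 21 at an unadjusted p under 0.05 and 27 on unique reads without mock replicate 2, an alternative chosen after seeing the data, and each of these held the 3. The count was 2 in limma-voom. Shares of all genes were not computed for limma-voom or for unique reads without mock replicate 2. Leaving out 1 library gave 0 to 26, with 26 only without mock replicate 2. For the other libraries left out, shares of all genes were not computed. No member was called higher in any of these fits. The median log2 fold change of the tested members stayed between -1.59 and -1.04 when 1 library was left out. Members with all Dex values below mock numbered 6 to 24 when 1 library was left out, with 24 for mock replicate 2 and 17 for the third Dex library, and 6 under every change of scaling, filter or reads counted. Leaving out a library makes separation easier for every gene. Of all genes tested, 23.5% were separated so without mock replicate 2, against 12.1% with all 6 libraries. The share without the third Dex library was not computed.

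Of 240 values for 16 members followed through the alternatives, 192 kept their direction and side of the threshold, 14 lost the call, 31 gained it and 3 turned in direction. The last were all of *SAUR51*, whose log2 fold change lay between -0.31 and 0.25 when 1 library was left out, at 0.02 without the first or the third mock library and 0.25 without the first Dex library. The cause was not tested. With the replicate number as a block 8 members were lower, 2 of them among the 3, and *SAUR20* was not (adjusted p = 0.0642). The share of all genes in that fit was not computed. Same-numbered libraries did not pair (correlations of deviations -0.10, 0.00 and 0.21), and the samples share only a number. Low counts limit the test: 8 of 41 were not tested, and 3 counts are worth 0.0935 to 0.131 CPM in a library. Not all of the 8 were low in every library. *SAUR19*, *SAUR22*, *SAUR23* and *SAUR68* had 140, 180, 204 and 123 reads over the mock libraries. Counts of reads shared between near-identical genes remain uncertain.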
